A study of Mus musculus with 6 samples.

Results

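The tumor necrosis factor (TNF) ligands, their receptors and the TRAF adaptor genes were followed in irradiated skin of Cbl-b-/- and WT mice. They were found by name, as every gene whose symbol begins with Tnfsf or Tnfrsf and a digit, together with Tnf, Lta, Ltb, Ltbr, Cd40, Cd70, Eda, Edar and the TRAF genes 1, 2, 3, 5 and 6. The names were set with earlier results of these data known. The rule found 41 genes among the 35556 transcript clusters of the array, of which 21789 carry 1 gene symbol. A transcript cluster is the set of probes that reads along 1 transcript, and each of the 41 genes had 1. The 41 comprised 14 ligands, 5 receptors with a death domain, 14 receptors that bind TRAFs, 4 decoy or orphan receptors and 4 TRAF adaptors. Traf3 had no transcript cluster with 1 symbol in the annotation used, and Tnfsf12 and Tnfsf13 shared 1 with several symbols, so these 3 genes were not analysed here. Dorsal skin was taken from 3 Cbl-b-/- mice and 3 WT mice of the BL6 strain, matched for sex and age, with 1 array for each mouse. Cbl-b-/- mice lack Cbl-b, a ubiquitin ligase that restrains receptor signaling in lymphocytes. All mice had been shaved 1 day earlier and received a single UVB dose of 80 mJ/cm2, and the skin was collected 24 h later. Whether the genotypes were littermates is not given in the sources used here, and arrays of unirradiated skin were not analysed here. All levels are deposited log2 values, in which 1 unit is a doubling, and every difference is Cbl-b-/- minus WT.

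TNF family ligands are trimeric membrane proteins, many of which are shed, and they bind receptors with cysteine-rich extracellular repeats. Receptors with a death domain recruit adaptors that can start apoptosis or NF-κB signaling, the others bind TRAF proteins directly, and decoy receptors bind a ligand without passing on a signal. In skin the family is known for TNF as an early cytokine of the sunburn response, for the ectodysplasin pathway that builds hair follicles, and for the ligand and receptor pairs through which dendritic cells and T cells stimulate each other.

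Cblb itself stood at 8.61, 8.69 and 8.61 in the Cbl-b-/- arrays, against 9.90, 9.66 and 9.72 in the WT arrays, with no overlap (log2 fold change −1.12, standard error 0.092, adjusted p = 0.0782 from limma). Array medians lay between 6.30 and 6.34. The number of arrays, 3 for each genotype, limits the precision. WT replicate 3 stood apart in hair follicle genes, with a median of 8.95 over 22 measured markers, against 5.41 and 5.56 in the other WT arrays and 5.65, 6.38 and 6.84 in the Cbl-b-/- arrays. Cbl-b-/- replicate 2 stood apart in neutrophil genes, with a median of 8.45 over 10 markers, against 6.02 and 6.13 in the other Cbl-b-/- arrays and 6.36 to 7.12 in the WT arrays. The neutrophil markers Mpo, Elane and Camp were highest in other arrays. Cbl-b-/- replicate 2 was also lowest in adipocyte (7.36, others 7.82 to 9.01) and skeletal muscle markers (9.77, others 10.16 to 11.14). It was highest in the median of the keratinocyte markers (11.76), with Krt5, Krt14, Krt1 and Dsg3 highest in it. Krt15 and Ivl were lowest in it, and the other keratinocyte markers were neither. Keratinocyte markers, which define the labelled tissue, had medians of 11.23 to 11.76 in Cbl-b-/- skin and 10.92 to 11.57 in WT skin. Of all marker lists examined, those with genes higher at an unadjusted p under 0.05 in limma were mast cell (3 of 8), T cell (2 of 8), B cell (2 of 6), neutrophil (1 of 10) and skeletal muscle (1 of 7), and none was lower in any list. Over all transcript clusters 3.68% were higher and 2.87% lower by that test. No marker passed in the lists for hair follicle (0 of 22), keratinocyte (0 of 10), fibroblast (0 of 7), endothelium (0 of 7), macrophage (0 of 9), Langerhans and dendritic cell (0 of 9) and adipocyte (0 of 5). The median log2 fold changes of the lists ran from −0.34 for hair follicle to 0.43 for mast cell. In whole skin, fewer cells of a type and less RNA per cell cannot be told apart.

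None of the 41 TNF family genes met the study's thresholds in limma, an unadjusted p under 0.05 with at least a 1.5-fold difference. Over all transcript clusters 0.276% met them as higher and 0.945% as lower in Cbl-b-/- skin. At an unadjusted p under 0.05 in limma, 2 family genes were higher, Ltb and Tnfsf13b, which is 4.88% of the 41 against 3.68% of all transcript clusters. None was lower, against 2.87% of all transcript clusters. None passed an adjusted p under 0.05 in limma, against 0.00281% of all transcript clusters. None passed it in the methods' test, a separate analysis of variance for each transcript cluster. There 2 passed unadjusted, and the share over all transcript clusters was not counted for that test. In 3 genes, Ltb, Tnfsf13b and Tnfrsf25, every Cbl-b-/- array lay above every WT array, which is 7.32% of the 41 against 8.66% of all transcript clusters. In none did every Cbl-b-/- array lie below every WT array, against 4.89% of all transcript clusters. Each share given here with its background lay near that background or was 0.

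The log2 fold changes of the 41 genes ran from −0.19 for Edar to 0.36 for Tnfsf13b, with a median of 0.11 against 0.02 over all transcript clusters. They were above 0 in 28 genes (68.3%), against 55.8% of all transcript clusters. Without Cbl-b-/- replicate 2 the median was 0.02. By role, the medians were 0.12 for ligands, 0.037 for death domain receptors, 0.042 for TRAF-binding receptors, 0.15 for decoy and orphan receptors and 0.095 for TRAF adaptors. The 95% interval of the difference stayed within 1.5-fold either way in 34 of the 41 (82.9%), against 77.9% of all transcript clusters. It reached further in Tnfsf10, Tnfsf13b, Tnfsf14, Tnfrsf19, Tnfrsf21, Tnfrsf23 and Tnfrsf26, so for these 7 the interval includes a difference of that size. The family genes spread somewhat more within Cbl-b-/- skin, with a median SD of 0.19 against 0.13 within WT skin, where both genotypes had 0.13 over all transcript clusters.

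**Figure D1:**
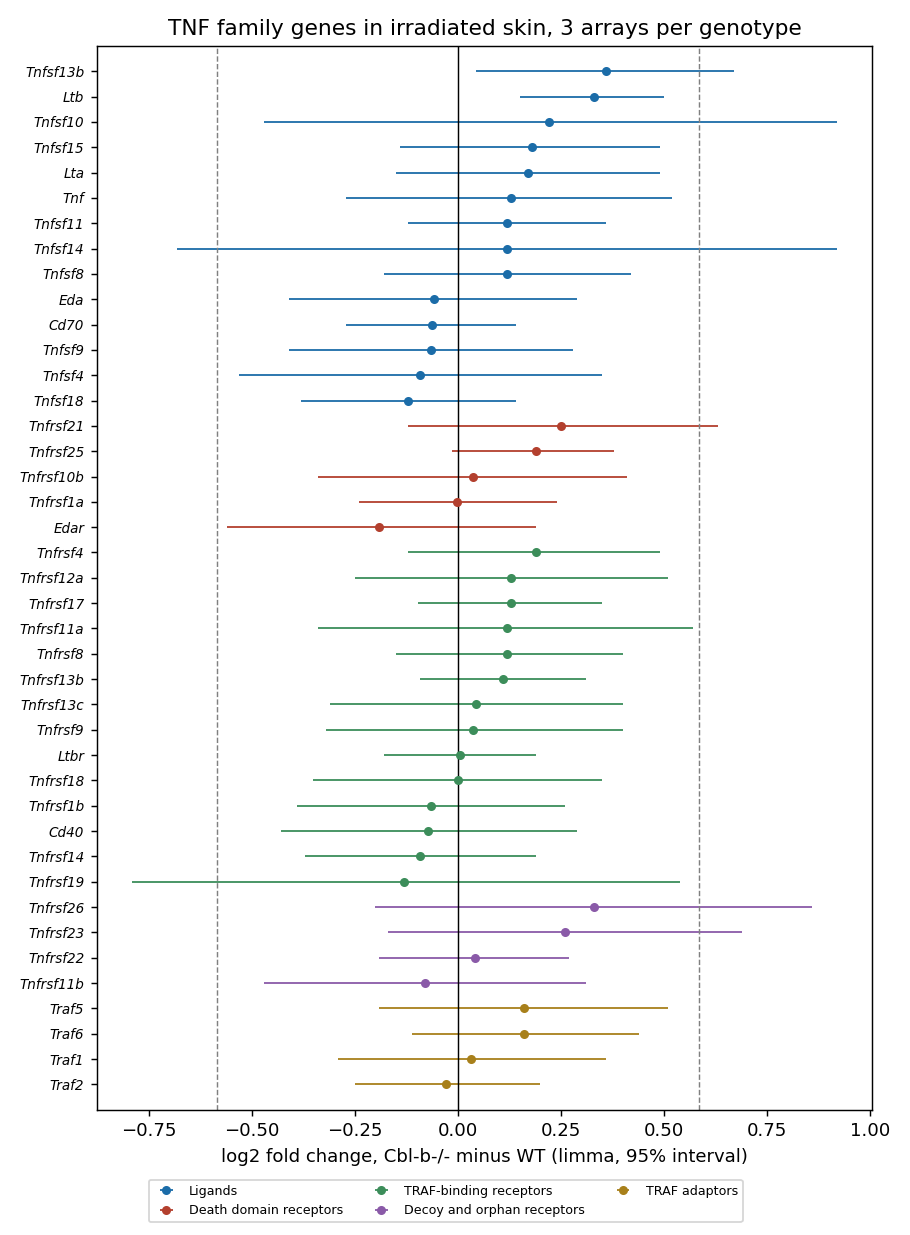
Log2 fold change (Cbl-b-/- minus WT, x axis) of each of the 41 TNF family genes (y axis), grouped by role, with points for the limma estimate and bars for its 95% interval. The dashed lines mark a 1.5-fold difference, and only the intervals of Ltb and Tnfsf13b lie wholly above 0.

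Ltb had the smallest standard error among the ligands. It encodes lymphotoxin β, which anchors lymphotoxin α to the membrane and through the receptor Ltbr organizes lymphoid tissue. It read 5.91, 5.89 and 5.94 in Cbl-b-/- skin, against 5.53, 5.61 and 5.61 in WT skin. All 3 Cbl-b-/- arrays lay above all 3 WT arrays. The means were 5.91 ± 0.02 and 5.58 ± 0.05 (SD, n = 3 each), a log2 fold change of 0.33 (standard error 0.073, 95% interval 0.15 to 0.50). The unadjusted p was 0.0034 and the adjusted p 0.654 from limma. With any single array omitted, the log2 fold change stayed between 0.30 and 0.34. Its means lay below 6.32, the median of all transcript clusters, and without detection calls its distance from background is unknown.

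In the RefSeq gene order Ltb, Tnf and Lta follow each other with 0 genes between. Lta, which encodes lymphotoxin α and was picked out after its values were seen, stood at 5.47, 5.04 and 5.19 in Cbl-b-/- skin, against 4.95, 5.20 and 5.04 in WT skin, so the genotypes overlapped (log2 fold change 0.17, 95% interval −0.15 to 0.49). Tnf, the founding cytokine of the family, read 7.20, 6.84 and 6.80 in Cbl-b-/- skin, against 7.01, 6.54 and 6.91 in WT skin. Its highest value was in Cbl-b-/- replicate 1 and its lowest in WT replicate 2, and the genotypes overlapped. The Tnf means were 6.95 ± 0.22 and 6.82 ± 0.25 (SD, n = 3 each), a log2 fold change of 0.13 (95% interval −0.27 to 0.52, adjusted p = 0.884 from limma) that became −0.012 without WT replicate 2. Ltbr, the receptor of the lymphotoxin heterotrimer, had a log2 fold change of 0.0048 (95% interval −0.18 to 0.19), among the narrowest intervals of the family.

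Tnfsf13b encodes BAFF, a survival factor of B cells made largely by myeloid and stromal cells. It read 6.0, 6.35 and 6.08 in Cbl-b-/- skin, against 5.96, 5.65 and 5.75 in WT skin. The genotypes did not overlap, but the lowest Cbl-b-/- array lay just above the highest WT array. The means were 6.14 ± 0.19 and 5.79 ± 0.16 (SD, n = 3 each), a log2 fold change of 0.36 (standard error 0.13, 95% interval 0.044 to 0.67). The unadjusted p was 0.0312 and the adjusted p 0.749 from limma. Both means lay below 6.32, the median of all transcript clusters, and without detection calls the distance from background is unknown. The call at an unadjusted p under 0.05 was lost in limma without Cbl-b-/- replicate 2 (0.25), without WT replicate 2 (0.29) and without WT replicate 3 (0.34), and also in the methods' test and after cyclic loess scaling of the arrays. Of the receptors of BAFF, the log2 fold change was 0.11 for Tnfrsf13b (TACI), 0.045 for Tnfrsf13c (the BAFF receptor) and 0.13 for Tnfrsf17 (BCMA), and none passed.

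Lymphocyte markers lay mostly in the same direction as Ltb and Tnfsf13b. Their log2 fold changes were above 0 in 6 of 8 T cell markers and 5 of 6 B cell markers, against 55.8% of all transcript clusters. Those below 0 were Cd3e (−0.04), Cd3g (−0.077) and Pax5 (−0.075). Cd3e and Cd3g were among the 3 T cell markers with means above 6.32, the median of all transcript clusters. Of the 6 B cell markers, 0 had a mean above it. Over the 8 measured T cell markers the median level was 5.46 to 5.69 in Cbl-b-/- arrays and 5.32 to 5.47 in WT arrays, and Cd3d (0.29) and Cd28 (0.26) were higher at an unadjusted p under 0.05 in limma. Over the 6 measured B cell markers it was 5.30 to 5.37 in Cbl-b-/- arrays and 5.07 to 5.28 in WT arrays, and Cd79b (0.28) and Cd22 (0.25) were higher by the same test. By that test 3.68% of all transcript clusters were higher. Cd3d, Cd28, Cd79b and Cd22 all had means below 6.32, and without detection calls their distance from background is unknown. The part of T cells and B cells in the levels of Ltb and Tnfsf13b was not tested.

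Promoter windows are shown for the genes that passed at an unadjusted p. The windows are 300 bases around the first RefSeq start site of each gene (GRCm38.p6), matched by symbol for 33 of the 41 genes, and the capitals mark a match to the consensus κB site, searched on both strands. The Ltb window lies at chr17:35194257-35194556 on the plus strand, and the Tnfsf13b window at chr8:10006217-10006516 on the plus strand.
Ltb: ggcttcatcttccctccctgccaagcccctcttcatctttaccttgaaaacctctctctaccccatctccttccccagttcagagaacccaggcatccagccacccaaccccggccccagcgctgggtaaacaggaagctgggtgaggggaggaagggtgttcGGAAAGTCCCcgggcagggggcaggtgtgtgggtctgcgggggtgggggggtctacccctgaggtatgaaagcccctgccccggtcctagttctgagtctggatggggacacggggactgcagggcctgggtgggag
Tnfsf13b: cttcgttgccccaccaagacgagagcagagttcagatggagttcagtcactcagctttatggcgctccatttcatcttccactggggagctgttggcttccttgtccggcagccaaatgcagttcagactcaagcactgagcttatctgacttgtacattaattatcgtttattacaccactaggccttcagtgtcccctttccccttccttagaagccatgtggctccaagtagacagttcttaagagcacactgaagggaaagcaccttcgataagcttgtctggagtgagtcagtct

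The Ltb window held 1 match, GGAAAGTCCC, beginning at position −87 from the start site, and the Tnfsf13b window held 0. Of the 33 family promoters, 2 had a match (6.06%), those of Ltb and Tnfrsf8, against 2211 of 27025 promoters (8.18%) of all genes. The 2 matches in the Tnfrsf8 window overlapped each other. A match is a description of these letters and does not show binding.

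Both receptors of TNF lay at the same level in the genotypes to within the spread. Tnfrsf1a, the death domain receptor found on most cells, read 10.44, 10.47 and 10.33 in Cbl-b-/- skin, against 10.33, 10.58 and 10.33 in WT skin. Its means were 10.41 ± 0.07 and 10.41 ± 0.15 (SD, n = 3 each), and its interval ran from −0.24 to 0.24. Tnfrsf1b, the receptor of leukocytes and endothelium that binds TRAF2, read 8.13, 8.48 and 7.99 in Cbl-b-/- skin, against 8.34, 8.24 and 8.21 in WT skin. The Cbl-b-/- arrays lay on either side of the WT arrays, and the log2 fold change was −0.065 (95% interval −0.39 to 0.26).

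Tnfrsf25, named here after its values were seen, encodes the death domain receptor DR3 of T cells. It read 6.09, 6.04 and 6.0 in Cbl-b-/- skin, against 5.75, 5.92 and 5.90 in WT skin, with no overlap. All of these values lay below 6.32, the median of all transcript clusters, and their distance from background is unknown. The log2 fold change was 0.19 (standard error 0.083, 95% interval −0.013 to 0.38, unadjusted p = 0.0624 from limma). Of the fits run, Tnfrsf25 passed an unadjusted p under 0.05 only in the methods' test. Tnfsf15, the gene of its ligand TL1A and likewise named after its values were seen, read 6.05, 5.66 and 6.06 in Cbl-b-/- skin, against 5.67, 5.73 and 5.84 in WT skin. Cbl-b-/- replicate 2 was the lowest of all 6 arrays for Tnfsf15. The log2 fold change was 0.18 (95% interval −0.14 to 0.49), and without that array it was 0.31, with an unadjusted p under 0.05 in limma. Of the other death domain receptors, Edar is given with its ligand. Tnfrsf21 (DR6) stood at 0.25 (95% interval −0.12 to 0.63) and Tnfrsf10b, the mouse receptor of TRAIL, at 0.037 (95% interval −0.34 to 0.41).

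**Figure D2:**
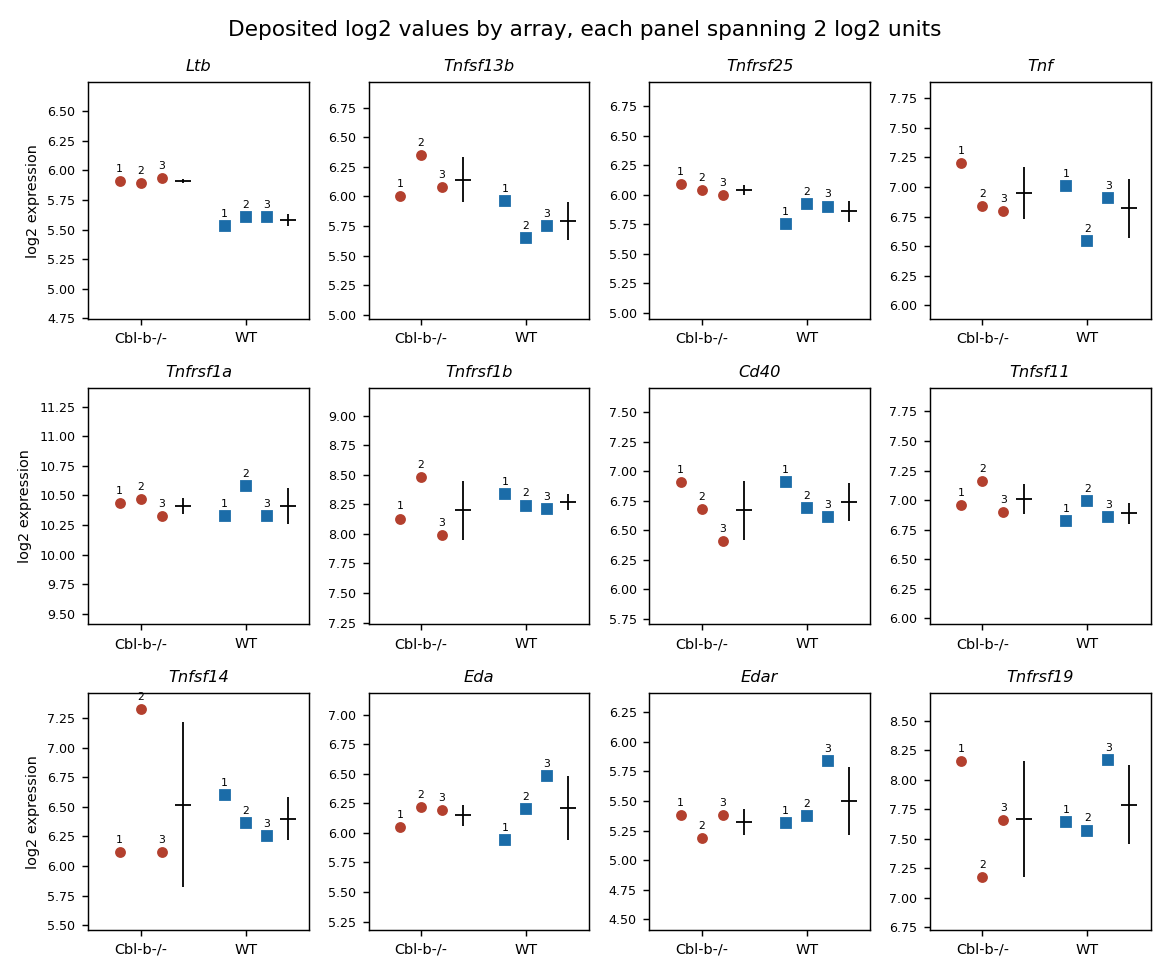
Deposited log2 values (y axis) of 12 TNF family genes by array, with red circles for Cbl-b-/- and blue squares for WT, numbers for the replicate, and bars for the mean ± SD of 3 arrays. The genotypes separate in Ltb, Tnfsf13b and Tnfrsf25 and overlap in the others, with Cbl-b-/- replicate 2 high in Tnfsf14 (7.33) and WT replicate 3 high in Edar (5.84).

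Tnfsf10 encodes TRAIL, a ligand that can kill transformed cells. It read 6.14, 5.83 and 5.49 in Cbl-b-/- skin, against 6.11, 5.62 and 5.05 in WT skin. Each genotype spanned a wide range, with WT replicate 3 lowest of all. The log2 fold change was 0.22 (standard error 0.29, 95% interval −0.47 to 0.92), and without WT replicate 3 it was −0.048.

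Tnfrsf26, Tnfrsf22 and Tnfrsf23 are neighbours with 0 genes between, and in the mouse Tnfrsf22 and Tnfrsf23 encode decoy receptors of TRAIL. These 3 and Tnfsf14 were picked out after their values were seen. Tnfrsf26 read 6.66, 7.35 and 6.81 in Cbl-b-/- skin, against 6.86, 6.67 and 6.29 in WT skin (log2 fold change 0.33, 95% interval −0.20 to 0.86). Tnfrsf23 read 7.85, 8.46 and 7.92 in Cbl-b-/- skin, against 7.88, 7.90 and 7.66 in WT skin (0.26, 95% interval −0.17 to 0.69). Both were highest in Cbl-b-/- replicate 2, and without that array their log2 fold changes were 0.13 and 0.068. Tnfrsf22, which lies between them, ran only from 7.82 to 7.94 in Cbl-b-/- skin and from 7.68 to 7.96 in WT skin. Tnfsf14 encodes LIGHT, a ligand of Ltbr and Tnfrsf14 found on activated T cells and other leukocytes. It read 6.12, 7.33 and 6.12 in Cbl-b-/- skin, against 6.60, 6.36 and 6.25 in WT skin. The log2 fold change was 0.12 (95% interval −0.68 to 0.92) with all arrays and −0.28 without Cbl-b-/- replicate 2. The median levels of the neutrophil and keratinocyte markers were highest in the same array, and those of the adipocyte and skeletal muscle markers lowest. Of the keratinocyte markers, Krt5, Krt14, Krt1 and Dsg3 were highest there, whereas Krt15 and Ivl were lowest. The part of any of these cells in these values was not tested. Tnfrsf14, which encodes the receptor HVEM, had a log2 fold change of −0.091 (95% interval −0.37 to 0.19).

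Among the pairs that carry costimulation between antigen-presenting cells and T cells, none of the family genes found by the naming rule passed the test. Cd40, the receptor of dendritic cells, B cells and keratinocytes, read 6.91, 6.68 and 6.41 in Cbl-b-/- skin, against 6.91, 6.69 and 6.61 in WT skin. The arrays of the genotypes were interleaved, with a log2 fold change of −0.072 (95% interval −0.43 to 0.29). The log2 fold changes were −0.091 for Tnfsf4 (OX40 ligand) and 0.19 for its receptor Tnfrsf4, and −0.12 for Tnfsf18 (GITR ligand) and 0.00034 for its receptor Tnfrsf18. They were −0.064 for Tnfsf9 (the CD137 ligand) and 0.038 for its receptor Tnfrsf9, and 0.12 each for Tnfsf8 (CD30 ligand) and its receptor Tnfrsf8. Cd70 stood at −0.062, and its receptor gene Cd27, outside the naming rule, was higher at an unadjusted p under 0.05 in limma (0.37). None of the intervals of the family genes named here reached a 1.5-fold difference. However, Tnfsf4, Cd70, Tnfsf8, Tnfsf18, Tnfsf9 and Tnfrsf8 had means below 6.32, the median of all transcript clusters, as did Cd27. The Cbl-b-/- and WT means were only 3.70 and 3.80 for Tnfsf4 and 4.44 and 4.51 for Cd70. Low levels are compressed and lack detection calls, so narrow intervals there do not show equal expression.

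Tnfsf11 encodes RANKL, which in keratinocytes stimulates Langerhans cells and in bone drives osteoclasts. It read 6.96, 7.16 and 6.90 in Cbl-b-/- skin, against 6.82, 6.99 and 6.86 in WT skin, with overlap (log2 fold change 0.12, 95% interval −0.12 to 0.36). Its receptor gene Tnfrsf11a (RANK) read 7.46, 7.43 and 7.12 in Cbl-b-/- skin, against 7.44, 7.39 and 6.82 in WT skin. WT replicate 3 was lowest, and the log2 fold change was 0.12 (95% interval −0.34 to 0.57) with it and −0.08 without it. Tnfrsf11b, the gene of the soluble decoy osteoprotegerin, stood at −0.079 (95% interval −0.47 to 0.31). Tnfrsf12a, the receptor of TWEAK that is induced in injured tissue, stood at 0.13 (95% interval −0.25 to 0.51) and turned to −0.045 without WT replicate 1, its lowest array.

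In the ectodysplasin pathway WT replicate 3 was the highest array for both ligand and receptor. Eda, the ligand, read 6.05, 6.22 and 6.19 in Cbl-b-/- skin, against 5.94, 6.20 and 6.48 in WT skin (log2 fold change −0.057, 95% interval −0.41 to 0.29). Edar, its death domain receptor in hair placodes and follicles, read 5.38, 5.19 and 5.38 in Cbl-b-/- skin, against 5.31, 5.37 and 5.84 in WT skin (−0.19, 95% interval −0.56 to 0.19). Tnfrsf19 encodes TROY, a receptor of hair follicle stem cells, and read 8.16, 7.18 and 7.66 in Cbl-b-/- skin, against 7.64, 7.57 and 8.17 in WT skin. WT replicate 3 and Cbl-b-/- replicate 1 were both high for Tnfrsf19, and the log2 fold change was −0.13 (95% interval −0.79 to 0.54). Cbl-b-/- replicate 2 was the lowest array for Tnfrsf19, and without it the log2 fold change was 0.12. Without WT replicate 3 the log2 fold changes were 0.079 for Eda, −0.02 for Edar and 0.061 for Tnfrsf19. The hair follicle markers were highest in that same array, and their part in the levels of these 3 genes was not tested. Of 10 measured genes of the Eda pathway in follicles and glands, 0 passed an unadjusted p under 0.05 in limma in either direction, with a median log2 fold change of −0.20. Without WT replicate 3, Lef1 turned from −0.46 to 0.45, Shh from −0.37 to 0.11 and Foxi3 from −0.19 to 0.09. Fst, Sostdc1 and Foxc1 stayed below 0.

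The 4 measured TRAF adaptors, which couple the receptors to NF-κB and kinase signaling, overlapped between genotypes. The log2 fold change was 0.033 for Traf1 (95% interval −0.29 to 0.36), which is itself an NF-κB target, and −0.028 for Traf2 (−0.25 to 0.20), the adaptor of TNF receptor signaling. It was 0.16 for Traf5 (−0.19 to 0.51) and 0.16 for Traf6 (−0.11 to 0.44), which also serves interleukin-1 and Toll-like receptors. The median SD over the 4 genes was 0.23 in Cbl-b-/- skin and 0.03 in WT skin.

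Single arrays placed many family genes at an extreme. Cbl-b-/- replicate 2 was the highest of the 6 arrays for 13 of the 41 genes, against 18.2% of all transcript clusters. WT replicate 3 was the lowest for 14 of the 41, against 19.7% of all transcript clusters. Cbl-b-/- replicate 1 was the highest for 10 (17.5% of all transcript clusters) and the lowest for 2 (11.4%), and Cbl-b-/- replicate 3 the highest for 5 (19.5%) and the lowest for 7 (20.3%). WT replicate 1 was the highest for 3 (15.3%) and the lowest for 11 (19.1%), and WT replicate 2 the highest for 4 (12.8%) and the lowest for 2 (15.8%). Cbl-b-/- replicate 2 was also the lowest for 5 (13.7%), and WT replicate 3 the highest for 6 (16.8%).

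**Figure D3:**
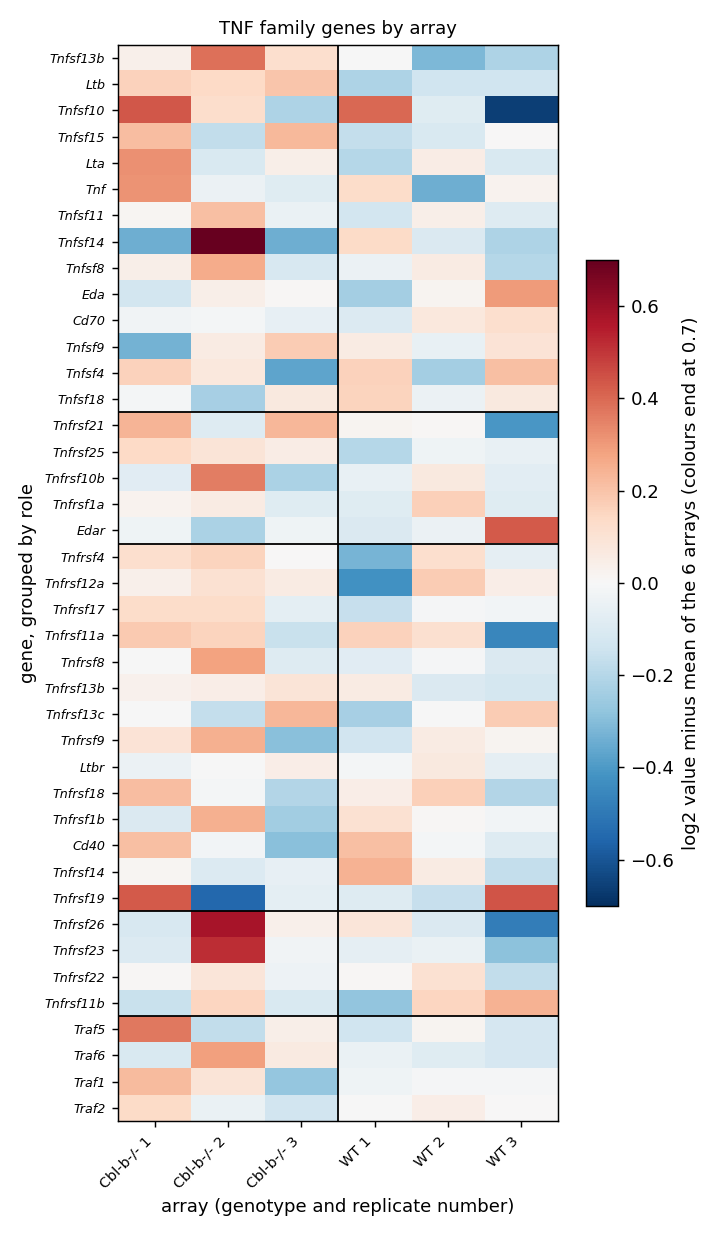
Deviation of each log2 value from the gene's mean over the 6 arrays (color, ending at 0.7), with the 41 TNF family genes in rows grouped by role and the arrays in columns, Cbl-b-/- left of WT. Ltb is evenly higher in Cbl-b-/- arrays, whereas Tnfsf14, Tnfrsf26 and Tnfrsf23 are high in Cbl-b-/- replicate 2 alone and Edar in WT replicate 3 alone.

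Family members outside the naming rule were counted as a list of 7 genes, with a median log2 fold change of 0.089. At an unadjusted p under 0.05 in limma, 2 were higher and 1 was lower, against 3.68% higher and 2.87% lower over all transcript clusters. Cd27, the receptor of CD70 on T cells, read 4.94, 5.17 and 5.10 in Cbl-b-/- skin, against 4.62, 4.75 and 4.74 in WT skin (log2 fold change 0.37, adjusted p = 0.685 from limma). All of these Cd27 values lay below 6.32, the median of all transcript clusters, and their distance from background is unknown. Ngfr, a neurotrophin receptor, had a log2 fold change of 0.24. Fas, the death receptor of FAS ligand and a p53 target, read 7.14, 6.54 and 6.76 in Cbl-b-/- skin, against 7.67, 7.14 and 7.23 in WT skin. Its highest Cbl-b-/- array and lowest WT array were level to the second decimal, and the log2 fold change was −0.53 (95% interval −1.01 to −0.055, adjusted p = 0.749 from limma). The call on Fas was lost on omission of WT replicate 1 (−0.37) and of either replicate 2 (−0.40) or replicate 3 (−0.50) of Cbl-b-/-, and that on Ngfr when any array other than Cbl-b-/- replicate 2 was left out. Fas also lost it in the methods' test and with array weights, and Ngfr after cyclic loess scaling.

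Of 32 measured receptor adaptors and signal relay genes, 0 were higher and 3 were lower at an unadjusted p under 0.05 in limma, with a median of −0.019. Over all transcript clusters 3.68% were higher and 2.87% lower by that test. The 3 were Birc2 (−0.33), which encodes the ubiquitin ligase cIAP1 of the TNF receptor complex, and Tnip1 (−0.44) and Tnip3 (−0.43), whose products bind A20 and restrain NF-κB. Birc2 lost the call when Cbl-b-/- replicate 2 or WT replicate 1 was omitted. It had 2 transcript clusters, and only the brighter was used here. Of 7 measured genes for the shedding of ligands and receptors, 0 passed in either direction, with a median of 0.038. In Tnip1 all Cbl-b-/- arrays, at 7.18, 6.81 and 6.82, lay below the WT arrays, at 7.42, 7.39 and 7.31 (adjusted p = 0.685 from limma).

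Of 29 measured TNF-induced genes, 2 were higher and 1 was lower at an unadjusted p under 0.05 in limma, with a median of −0.17. Over all transcript clusters 3.68% were higher and 2.87% lower. The log2 fold change was below 0 in 22 of the 29 and above 0 in 7, against 55.8% above 0 over all transcript clusters. For most of the 29, Cbl-b-/- replicate 3 was the lowest of the 6 arrays, against 20.3% of all transcript clusters. Without it the log2 fold changes were 0.90 for Cxcl2, 0.67 for Il6, 0.43 for Il1b and 0.42 for Cxcl10. For Ccl2 (−0.27), Icam1 (−0.22), Nfkbia (−0.11) and Ccl7 (−0.082) they stayed below 0. Also below 0, with that array or any other left out, were Sod2, Tnfaip6, Birc3, Tnfaip3, Relb, Nfkb2, Nfkbie, Tnfaip2 and Sele. The part of Cbl-b-/- replicate 3 in the count was not tested. Ccl5, a chemokine of T cells and NK cells, read 7.95, 8.06 and 8.04 in Cbl-b-/- skin, against 7.59, 7.20 and 7.51 in WT skin (log2 fold change 0.58, standard error 0.12, adjusted p = 0.602 from limma), just short of the fold threshold. Ptgs2, which encodes the inducible cyclooxygenase, was the 1 gene of the list past the study's thresholds. It read 8.35, 9.59 and 8.71 in Cbl-b-/- skin, against 8.17, 8.35 and 7.60 in WT skin (log2 fold change 0.84, adjusted p = 0.749 from limma). It was highest in Cbl-b-/- replicate 2 and lost its call without that array (0.49), without Cbl-b-/- replicate 3 (0.93), without WT replicate 1 (0.91) and without WT replicate 3 (0.62), as well as in the methods' test and with array weights. Sod2, the mitochondrial superoxide dismutase gene, read 10.60, 10.57 and 10.17 in Cbl-b-/- skin, against 10.98, 10.97 and 10.79 in WT skin (−0.46, adjusted p = 0.716 from limma).

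**Figure D4:**
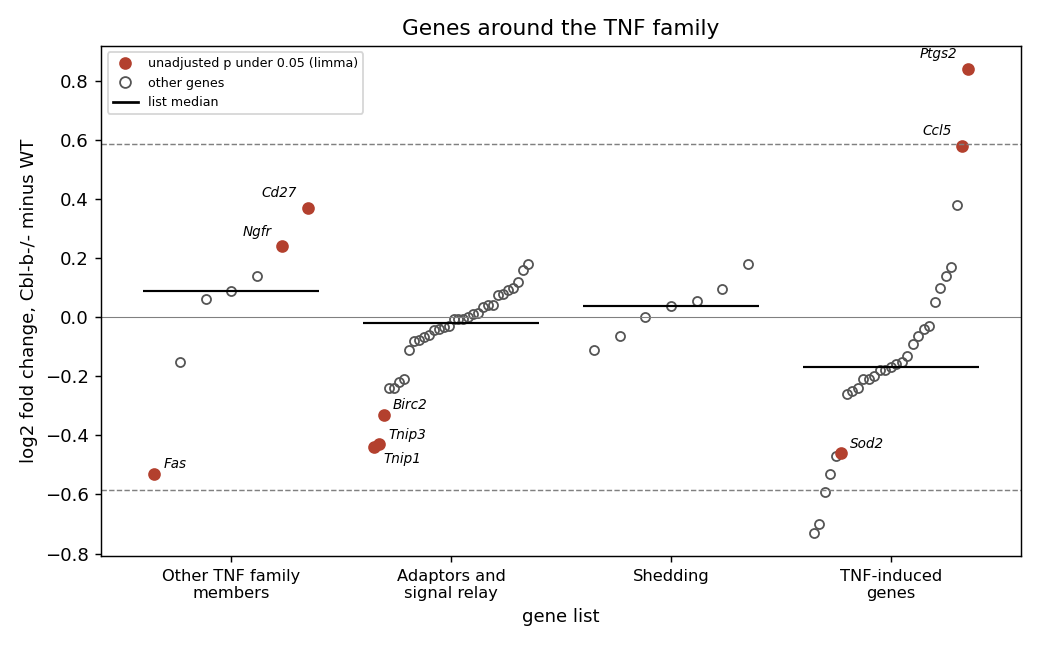
Log2 fold change (Cbl-b-/- minus WT, y axis) of genes around the TNF family, by list (x axis), with filled points for an unadjusted p under 0.05 in limma, open points for the other genes, horizontal bars for list medians and dashed lines for a 1.5-fold difference. Only Ptgs2 (0.84) lies past a dashed line among the filled points.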

How the data were processed

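Dorsal skin RNA was labelled and read on 1 Affymetrix array for each mouse (Mouse Gene 1.0 ST). The authors applied the robust multichip average (RMA) and deposited 1 log2 value for each transcript cluster and array. The submitters' processing notes name Partek 6.5 and Affymetrix Expression Console. Whether unirradiated arrays were normalized together with these, and the genome build of the probes, are not given in the sources used here. RMA pulls arrays to a common distribution and carries no detection calls, so low levels are compressed and cannot be called absent.

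The deposited log2 values were used without further scaling. Genes were named through GEO's platform annotation, and a transcript cluster with several symbols was not used. Where a symbol had several transcript clusters, as for some genes of the lists, the brightest by mean over the 6 arrays was used. Genotypes were compared with limma 3.58.1 (lmFit, eBayes, two-sided) in R 4.3.3 over all 35556 transcript clusters, with adjustment by Benjamini and Hochberg over all of them. No covariate was fitted. The thresholds were those of the methods, p under 0.05, read as unadjusted, and 1.5-fold. The fit was tested on simulated data. Promoter windows came from RefSeq (GRCm38.p6). The alternatives were the methods' test, cyclic loess, removal of transcript clusters with a mean under the median of 6.32 (called dim), a trended prior variance, array weights, the replicate number as a block, and leaving out each array.

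The members, gene lists and cell type markers were chosen with earlier results of these data known. Values by array are given for members with an unadjusted p under 0.05, for those without overlap and a log2 fold change of at least 0.3, for Tnf, Tnfrsf1a, Tnfrsf1b, Cd40, Eda, Edar, Tnfsf11 and Tnfrsf11a, and for the 3 members that changed most without WT replicate 3 (Tnfsf10, Tnfrsf11a and Tnfrsf19). Others are named as chosen after their values were seen, or by count. Ripk1, Chuk, Nfkb1 and Ctgf of the lists had no transcript cluster with 1 symbol and were not used here.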

Additional observations from a re-analysis of the deposited data

How the results depend on the processing

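None of the 41 genes met the study's thresholds or passed an adjusted p under 0.05 under any alternative run. At an unadjusted p under 0.05 limma called 2, and the count was 1 (Ltb) with cyclic loess and 1 (Ltb) with the replicate number as a block. It was 0 without dim transcript clusters, which left 24 of the 41 to test and removed Ltb, Tnfsf13b and Tnfrsf25 by construction. Leaving out each array in turn gave counts of 1 to 2, with 1 (Ltb) without WT replicate 2 and without WT replicate 3, and with Tnfsf15 in place of Tnfsf13b without Cbl-b-/- replicate 2. Ltb kept its call in every fit that tested it. Tnfsf13b lost it in the methods' test, with cyclic loess, under the block and without 3 of the arrays. The methods' test called Tnfrsf25 in its place. The number of genes without overlap was 3, 0 without dim transcript clusters, and 4 to 9 when single arrays were left out, since fewer arrays overlap less by construction. The count was 6 without Cbl-b-/- replicate 1, 9 without Cbl-b-/- replicate 2, 8 without Cbl-b-/- replicate 3, 5 without WT replicate 1 and 7 without WT replicate 2. Shares over all transcript clusters were not counted under the alternatives. The counts of family genes under them therefore have no background and are not read as a result about the family. The median log2 fold change of the 41, 0.11, was 0.02 to 0.16 with each array left out, the lowest without Cbl-b-/- replicate 2. It was 0.043 over the 24 genes left without dim transcript clusters, 0.064 with cyclic loess and 0.074 with array weights. The cause was not tested.

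Same-numbered arrays shared only a number. Their deviations from the genotype means correlated at 0.233, 0.0925 and 0.247 across transcript clusters, and 5 of the 6 arrays correlated best with their own number, a hint from the data and not the design. No gene of the family has several transcript clusters, so their mean gave no separate value.

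Small log2 fold changes changed sign. With array weights the values were 0.0092 for Cd40, −0.037 for Ltbr, −0.0045 for Tnfrsf10b, −0.0028 for Tnfrsf18, 0.11 for Tnfrsf19, −0.013 for Tnfrsf22, 0.086 for Tnfsf4 and 0.0073 for Traf2. With cyclic loess they were −0.0019 for Tnfrsf18 and −0.015 for Traf1. When each array was left out, the range crossed 0 in 22 genes. It was −0.19 to 0.057 for Cd40, −0.19 to 0.079 for Eda, −0.026 to 0.04 for Ltbr, −0.012 to 0.23 for Tnf, −0.13 to 0.16 for Tnfrsf10b, −0.08 to 0.23 for Tnfrsf11a, −0.24 to 0.025 for Tnfrsf11b, −0.045 to 0.25 for Tnfrsf12a, −0.063 to 0.14 for Tnfrsf13c, −0.2 to 0.0085 for Tnfrsf14. It was −0.11 to 0.1 for Tnfrsf18, −0.37 to 0.12 for Tnfrsf19, −0.043 to 0.083 for Tnfrsf1a, −0.2 to 0.04 for Tnfrsf1b, −0.036 to 0.1 for Tnfrsf22, −0.078 to 0.19 for Tnfrsf9, −0.048 to 0.48 for Tnfsf10, −0.28 to 0.32 for Tnfsf14, −0.23 to 0.07 for Tnfsf4, −0.17 to 0.086 for Tnfsf9, −0.071 to 0.18 for Traf1 and −0.1 to 0.034 for Traf2. None of these genes passed a test in any of these fits.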
